A study of Mus musculus with 38 samples.

Results

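Polycomb repressive complex 2 (PRC2) was followed here through the genes that encode it: Ezh2, Ezh1, Eed, Suz12, Rbbp4, Jarid2, Aebp2, Mtf2 and Phf19, together with Kdm6b, which encodes an enzyme that removes the mark PRC2 writes. These 10 genes, of 21938 protein-coding genes, were taken from a list, and each was read over its GRCm38 gene body with 5 kb added on either side. The data were chromatin immunoprecipitation followed by sequencing (ChIP-seq) for H3K4me3, H3K27me3, H3K9me3, H3K27ac and H3K4me1 in a mouse embryonic stem cell line, ES-E14TG2a, kept in serum with leukaemia inhibitory factor and taken at 0 h. IκBα-WT cells (IkappBalpha+/+) had received non-targeting guide RNAs, and IκBα-KO cells (IkappBalpha-/-) had been edited by CRISPR-Cas9 in the first exon of Nfkbia, which encodes IκBα, an inhibitor of NF-κB. For each mark, 3 independent clones of either genotype gave 1 library each, which made 30 ChIP libraries, and 8 inputs brought the samples to 38, and p-values measure the spread between these clones. The comparison asked if the marks on the genes of the writer and the eraser of H3K27me3 differed between the genotypes.

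PRC2 trimethylates lysine 27 of histone H3 through EZH2 or its paralogue EZH1, and it needs EED, which binds the finished mark, and SUZ12, the scaffold on which the other subunits assemble. RBBP4 is a histone chaperone in the core, JARID2 and AEBP2 define the PRC2.2 form, and MTF2 and PHF19 are Polycomb-like proteins of the PRC2.1 form that bring the complex to CpG-rich DNA. In embryonic stem cells the mark keeps developmental genes silent, and KDM6B (JMJD3) is one of the demethylases that take it off.

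Promoters of 3 of the genes are shown first, from RefSeq on GRCm38.p6, with CpG dinucleotides in capitals. Each is read 5′ to 3′ on the strand of its gene and ends at the annotated 5′ end. Mtf2 (chr5:108065424-108065673, plus strand) is shown because its H3K4me3 peaks were wider in KO cells, Rbbp4 (chr4:129335371-129335620, minus strand) because its H3K4me3 enrichment fell, and Phf19 (chr2:34914027-34914226, minus strand) because it carried no H3K4me3 peak.
Mtf2: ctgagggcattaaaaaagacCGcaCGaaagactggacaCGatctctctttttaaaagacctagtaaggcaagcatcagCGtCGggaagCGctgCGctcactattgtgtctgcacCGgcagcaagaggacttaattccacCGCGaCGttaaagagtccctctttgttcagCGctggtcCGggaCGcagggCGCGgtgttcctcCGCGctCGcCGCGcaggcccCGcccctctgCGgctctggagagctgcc
Rbbp4: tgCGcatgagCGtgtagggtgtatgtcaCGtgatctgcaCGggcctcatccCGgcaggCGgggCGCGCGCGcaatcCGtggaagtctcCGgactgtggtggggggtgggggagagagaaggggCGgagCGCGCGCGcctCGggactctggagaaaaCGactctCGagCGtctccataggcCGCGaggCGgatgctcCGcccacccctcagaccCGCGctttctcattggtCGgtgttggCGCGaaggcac
Phf19: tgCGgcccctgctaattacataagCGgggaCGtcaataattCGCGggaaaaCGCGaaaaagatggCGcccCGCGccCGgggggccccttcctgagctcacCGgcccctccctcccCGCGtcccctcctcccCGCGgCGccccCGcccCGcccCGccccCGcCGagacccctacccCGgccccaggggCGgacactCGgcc
RefSeq promoters matched 9 of the 10 genes, with 13 entries in all, and Kdm6b had no entry. Counted over the 250 bases before the RefSeq start, the Mtf2 sequence held 23 CpG, that of Rbbp4 30 and that of Phf19 31, against a median of 6 over 32851 promoters. The 200 bases printed for Phf19 hold 25 of them. Ezh1, whose H3K4me3 enrichment also fell and whose promoter is not shown, held 14. Suz12 held the most, 37, and at the other end the Aebp2 entry at its annotated 5′ end held 1. The E2F core TTTNNCGC, searched on both strands, was present upstream of Suz12 and Phf19 and in 4.28% of all promoters. The NF-κB motif was present in 1 Aebp2 entry and in 3.90% of all promoters.

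The H3K4me3 lists give peaks with a fold enrichment over input and no read counts, so the reads in their peaks are unknown. The study's methods give a range of sequenced reads for the H3K4me3 samples, not a value for each library. The other 4 marks give ChIP reads per called region, and libraries held between 34736939 and 35951506 reads in H3K4me1 calls, between 22943091 and 28339766 in those of H3K27ac, between 8910890 and 10938375 in those of H3K27me3, and between 8548342 and 12105343 in those of H3K9me3. Each genotype had 1 input per experiment, with H3K27ac and H3K4me1 sharing a pair, so input values carry no replicate check. Of 7 stem cell markers, 5 had H3K4me3 and 6 had H3K27ac at the promoter in all 6 libraries (Esrrb had neither in all 6), while 1 had H3K27me3. Of 5 mesendoderm and endoderm markers, 5 had H3K27me3, 3 H3K27ac and 1 H3K4me3 there in all 6 libraries. Of 3 neural markers, 3 had H3K27me3, 3 H3K27ac and 2 H3K4me3, and of 3 fibroblast markers, 3 had H3K27me3, 2 H3K27ac and 1 H3K4me3. Histone marks do not show the edit itself, and H3K4me3 peaks in the Nfkbia window covered 1168 to 1523 bp in WT and 235 to 1286 bp in KO libraries.

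Marks of active chromatin were called at the PRC2 genes in both genotypes. All 10 windows had H3K27ac and H3K4me1 calls in all 6 libraries, and 9 had H3K4me3 peaks in all 6. Of all 21938 gene windows, 14625 had H3K27ac, 16679 H3K4me1 and 13533 H3K4me3 in all 6. H3K27me3 was not called in any library at Ezh2, Eed, Suz12, Rbbp4, Jarid2 or Mtf2. Of all windows, 13437 had H3K27me3 in at least 1 library and 9733 in all 6. H3K9me3 was called in at least 1 library at 6 genes, against 12110 of all windows, and in none at Ezh2, Ezh1, Phf19 and Kdm6b. In WT cells H3K27ac calls covered between 11.5% of the window (Phf19) and 100.0% (Eed).

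**Figure D1:**
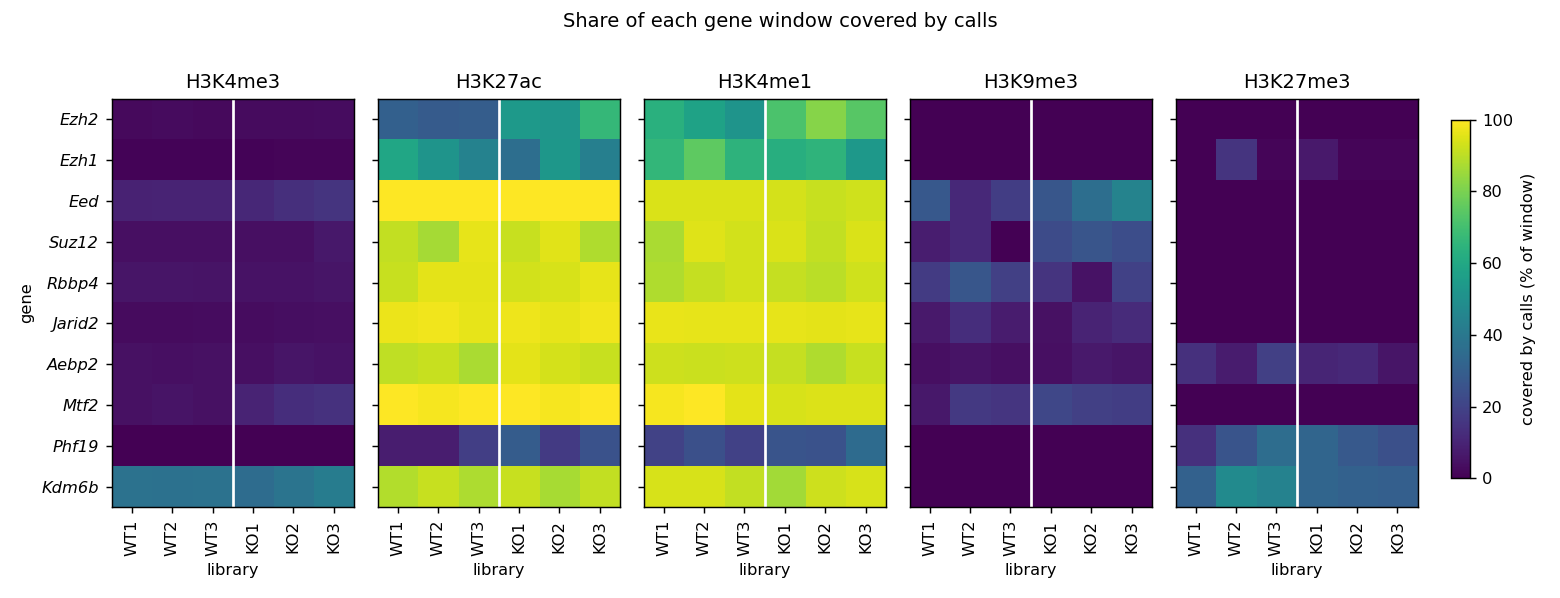
Share of each gene window (gene body with 5 kb on either side) covered by calls, as colour from 0 to 100%, for the 10 genes (rows) in the 3 WT and 3 KO libraries (columns) of each mark. H3K27ac and H3K4me1 cover most of 7 windows, H3K27me3 is called at 3 genes in all libraries, and H3K27ac at Ezh2 is wider in the 3 KO libraries.

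H3K27me3, the product of the complex, lay within 3 of the genes in all 6 libraries: Aebp2, Phf19 and Kdm6b. At Ezh1 it reached the 3′ edge of the window, next to Cntnap1, in 5 of 6 libraries, and WT replicate 2 alone had a further call of 3200 bp in the last part of the gene. Covered bp did not separate WT from KO at any of the 4 genes with a call, nor did ChIP reads per kb of called sequence at the 3 called in all 6 libraries, while 18.5% and 19.6% of all such windows were without overlap. None of the 6 tested regions passed the quasi-likelihood test of edgeR at a Benjamini-Hochberg adjusted p below 0.05, against 2.73% of 18809 regions. DESeq2 gave an adjusted p to 4 of the 6 and called 0 of these, against 6.03% of all regions with one. In edgeR, 1 of the 6 had an unadjusted p under 0.05. No region was called in all libraries of one genotype and in none of the other, out of 10, a pattern seen in 3% of merged regions in gene windows.

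Kdm6b (chr11:69398508-69413675, minus strand), the eraser, had H3K27me3 calls covering 7800, 12000 and 11200 bp in WT and 8200, 7800 and 7600 bp in KO. WT replicate 1 lay among the KO values, so the groups overlapped. Its region in the middle of the gene body (chr11:69403401-69408400) had normalised densities of 46.2, 46.8 and 51.3 ChIP reads per kb in WT and 38.7, 40.3 and 41.1 in KO. The 3 KO values were below all WT values, and the difference had a log2 fold change of −0.27 ± 0.10 (SE; edgeR adjusted p = 0.195), which did not pass the test. When only regions of like length in the 6 libraries were fitted, without the length offset, the same region gave −0.44 with an edgeR adjusted p of 0.000126, in a fit that called 35.1% of its 2025 regions. Another Kdm6b region, just inside the 5′ end, was called in 3 WT and 2 KO libraries.

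Phf19 (chr2:34893757-34914026, minus strand), the Polycomb-like subunit, carried H3K27me3 in the 3′ part of the gene, from 11.8 to 20.6 kb after its 5′ end. Normalised densities there were 39.1, 33.9 and 34.0 reads per kb in WT and 27.6, 27.4 and 34.6 in KO, where KO replicate 3 lay within the WT range. The log2 fold change was −0.25 ± 0.12 (SE; edgeR adjusted p = 0.348). A second region called in all 6 libraries lay past the 3′ end of Phf19, from 20.8 to 41.0 kb, over Cutal. Its log2 fold change was 0.04 ± 0.10 (SE; edgeR adjusted p = 0.911). Aebp2 (chr6:140622663-140678472, plus strand), the zinc-finger cofactor, was the only one of the 10 genes with H3K27me3 over its 5′ end, at 36.9, 30.0 and 32.3 reads per kb in WT and 26.4, 34.4 and 36.8 in KO. These values overlapped, with a log2 fold change of −0.05 ± 0.14 (SE; edgeR adjusted p = 0.928).

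**Figure D2:**
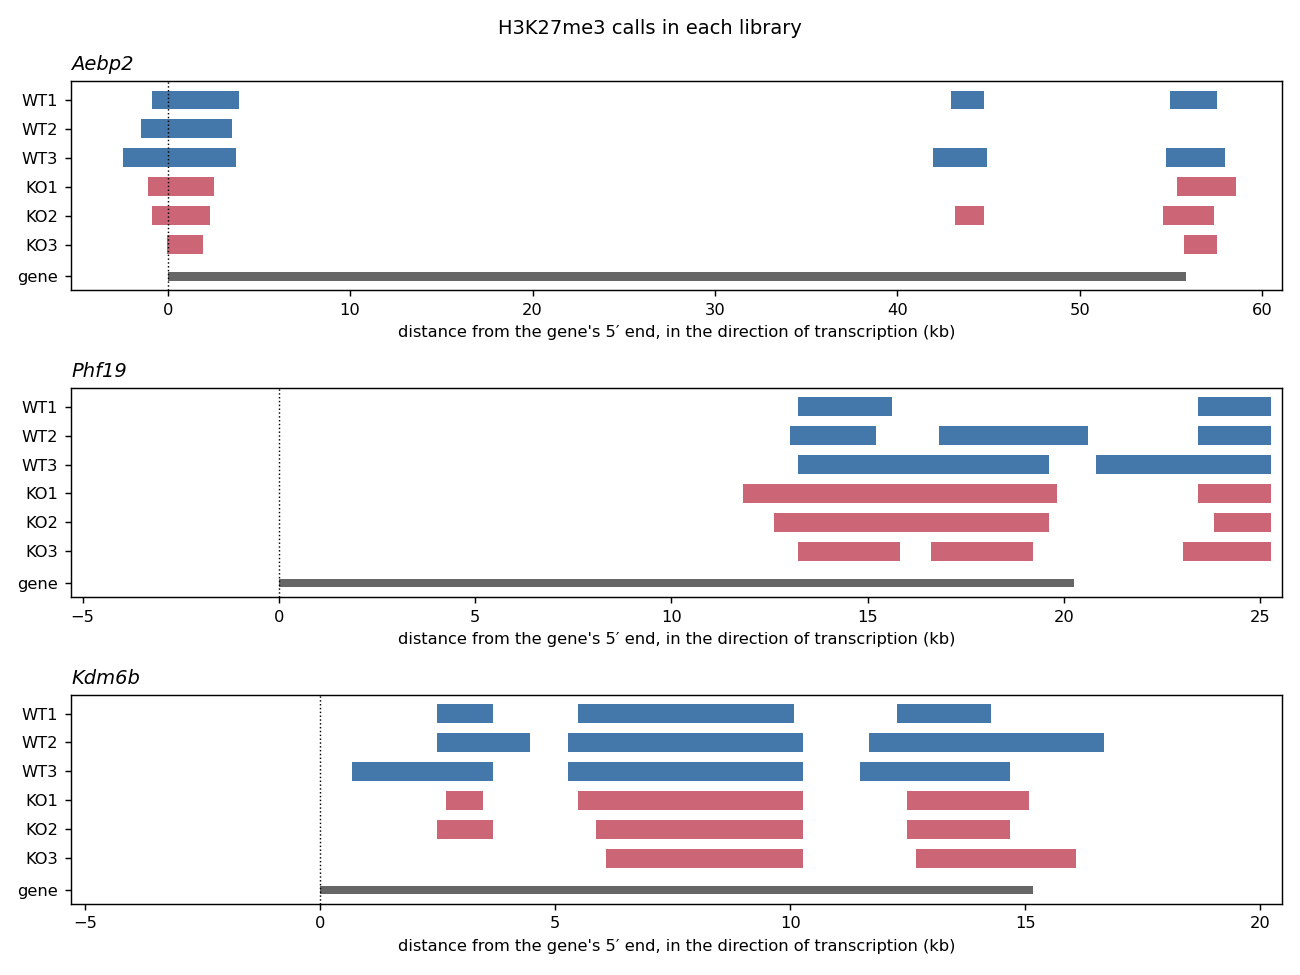
H3K27me3 calls of the 3 WT (blue) and 3 KO (red) libraries at Aebp2, Phf19 and Kdm6b, by distance from the annotated 5′ end in kb, with the gene body in grey. The mark covers the 5′ end of Aebp2 in all 6 libraries and lies mostly inside the bodies of Phf19 and Kdm6b. A further call starts past the 3′ end of Phf19. Positions are alike in both genotypes.

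H3K4me3, the mark of active promoters, covered more sequence at Mtf2 and before Kdm6b in KO cells, and its enrichment fell at Ezh1 and Rbbp4. By the bp that peaks covered in the window, 3 of 9 genes with peaks (Mtf2, Eed and Jarid2) had KO values above all WT values and none had them below. Of all windows with a peak, 31.8% did not overlap between the genotypes, and most of those, 24.5% of all, were higher in KO. By the highest fold enrichment in the window, 2 of 9 genes passed limma (Benjamini-Hochberg adjusted p under 0.05), both lower in KO, against 18.9% of 13533 windows. Without centring the libraries on their medians, 1 gene passed and it was higher (16% of all windows passed), and the median over all windows moved from −0.02 to 0.06 on the log2 scale.

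Mtf2 (chr5:108065674-108109004, plus strand), the Polycomb-like subunit that recruits PRC2 in embryonic stem cells, had peaks covering 2452, 2751 and 2308 bp in WT and 5266, 6909 and 7537 bp in KO. Every KO value was above all WT values, and the mean was 2.62-fold higher, 2504 ± 226 bp against 6571 ± 1173 bp (SD, n = 3). The two-sided exact permutation test gave p = 0.1, the smallest that 3 against 3 allows. A mean at least 2-fold higher without overlap was found in 1.67% of windows called in all 6 libraries, and the median log2 ratio of covered bp over all windows was 0.12.

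The added coverage at Mtf2 lay before, around and after the 5′ end. Around the 5′ end, WT peaks began at 8 to 49 bp after it and a separate peak stood upstream in WT replicates 1 and 2, whereas in KO replicates 1 and 3 a single peak ran from −476 or −572 bp to 1385 or 1408 bp around the 5′ end. The printed Mtf2 sequence is the stretch just before that 5′ end. Further upstream, WT peaks of 280 to 396 bp stood where KO libraries had peaks of 1608, 2455 and 2159 bp. Inside the gene, a peak between 14678 and 15557 bp after the 5′ end was called in all KO libraries and no WT library. Another between 7083 and 7966 bp was called in 2 KO libraries, 8 further peaks in the window were called in 1 KO library each, and 1 at 1647 to 1874 bp was called in WT replicate 1 alone. Bases called in all KO and no WT libraries added up to 1462 bp, and 50 of 15151 windows (0.33%) had as many.

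The highest Mtf2 fold enrichment over input was 9.21, 10.3 and 9.90 in WT and 14.4, 14.2 and 14.9 in KO. The groups did not overlap, and the log2 fold change of 0.48 ± 0.17 (SE) had a limma adjusted p of 0.0599, which did not pass the test. Without centring it was 0.57 with a limma adjusted p of 0.0477.

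Kdm6b had the widest H3K4me3 coverage of the 10 genes, and 0.0726% of all windows with a peak had as much in WT cells. The whole window held 9502, 9355 and 9475 bp of peaks in WT and 8917, 9658 and 10542 bp in KO, which overlapped. The window also holds Cyb5d1, Naa38 and Tmem88, and peaks were called over them in both genotypes. In its promoter, from 5000 bp before to 100 bp after the 5′ end, peaks covered 950, 677 and 852 bp in WT and 2107, 1902 and 2073 bp in KO. The promoter values did not overlap, with a mean 2.45-fold higher in KO (exact permutation p = 0.1, two-sided, the smallest possible). Overlap was missing at 24.7% of all promoters with a peak, and 4.68% of those called in all 6 libraries were at least 2-fold higher without overlap.

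Both added Kdm6b peaks, at −3735 to −3136 bp and at −2339 to −1498 bp from the 5′ end, were called in 3 of 3 KO and 0 of 3 WT libraries. With 1 further peak each at Eed (about 4 kb into the gene) and Mtf2 (above), 4 of the 42 merged H3K4me3 peaks of the 10 windows were restricted to KO and 0 to WT, against 3.49% restricted in either direction over all gene windows. The highest Kdm6b fold enrichment was 12.2, 10.2 and 11.6 in WT and 11.6, 17.8 and 10.2 in KO, which overlapped (limma adjusted p = 0.772).

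**Figure D3:**
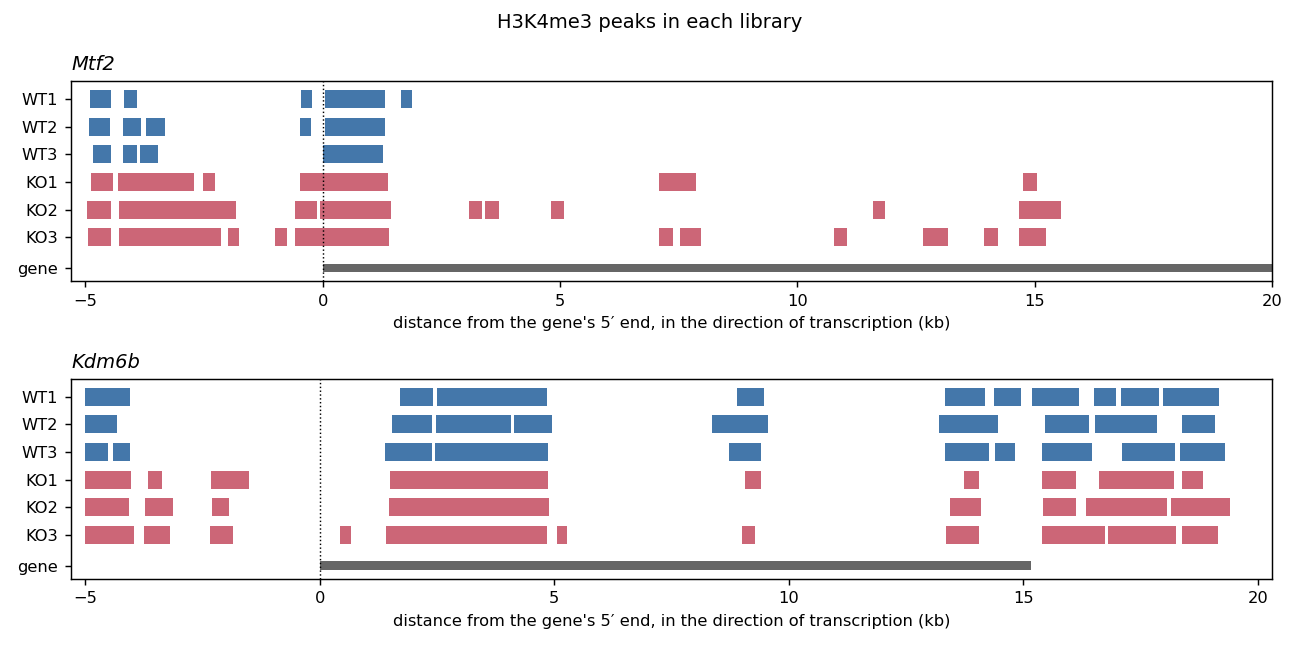
H3K4me3 peaks of the 3 WT (blue) and 3 KO (red) libraries at Mtf2 and Kdm6b, by distance from the annotated 5′ end in kb, with the gene body in grey; the Mtf2 panel ends within the gene. At Mtf2, peaks before and around the 5′ end are wider in KO libraries, and most peaks further inside the gene are present only in KO libraries, with 1 in WT replicate 1 alone, and 2 peaks before Kdm6b are present in all KO and no WT libraries.

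Ezh1 (chr11:101191115-101226463, minus strand), the less active catalytic paralogue, had the narrowest H3K4me3 of the genes with a peak, at 450 to 514 bp in WT and 510 to 676 bp in KO. Its fold enrichment was 9.39, 9.06 and 11.97 in WT and 5.57, 7.64 and 7.53 in KO. All KO values were below all WT values, and it fell by 0.64 ± 0.17 (SE) on the log2 scale (limma adjusted p = 0.0199). Without WT replicate 3 the limma adjusted p was 0.0648, and without KO replicate 1 it was 0.0732.

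Rbbp4 (chr4:129307100-129335370, minus strand), the histone chaperone of the core, fell by 0.65 ± 0.18 (SE) on the log2 scale (limma adjusted p = 0.0219). Its fold enrichment was 20.4, 18.4 and 23.5 in WT and 12.2, 17.6 and 12.9 in KO, without overlap. The call was lost without WT replicate 1, WT replicate 3, KO replicate 1 or KO replicate 3, with limma adjusted p from 0.0533 to 0.0796. Zbtb8os begins 325 bp upstream on the other strand, and its peaks share the window. In the Rbbp4 promoter, which also holds the 5′ end of Zbtb8os, peaks covered 1180, 1126 and 1086 bp in WT and 987, 1015 and 1062 bp in KO. Rbbp4 was the only one of the 10 genes with lower H3K4me3 promoter coverage in KO without overlap. Of all promoters with a peak, 6.73% were lower without overlap.

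Ezh2, the main catalytic subunit (chr6:47530139-47595341, minus strand), had H3K4me3 fold enrichments of 10.1, 11.8 and 13.2 in WT and 10.9, 13.04 and 12.6 in KO, overlapping (log2 fold change −0.02 ± 0.17, SE, limma adjusted p = 0.948). At Suz12 (chr11:79993106-80034123, plus strand) they were 18.9, 13.1 and 17.5 in WT and 22.3, 16.9 and 23.5 in KO, overlapping through KO replicate 2 (0.26 ± 0.19, SE, limma adjusted p = 0.366). Eed (chr7:89954654-89980983, minus strand) had peaks of 3543, 3661 and 3689 bp in WT and 4092, 4915 and 5445 bp in KO, without overlap (exact permutation p = 0.1). Its fold enrichments of 17.0, 11.5 and 17.4 in WT and 8.81, 15.2 and 10.2 in KO did overlap (−0.52 ± 0.21, SE, limma adjusted p = 0.0885), and without KO replicate 2 the limma adjusted p was 0.0335. Jarid2 (chr13:44729474-44921643, plus strand), the cofactor that defines PRC2.2, had 6126, 5919 and 6405 bp of peaks in WT and 6714, 7449 and 8232 bp in KO, also without overlap (exact permutation p = 0.1). Its coverage in WT was matched by 0.389% of windows. Aebp2 peaks overlapped over the window, and in its promoter they covered 126, 0 and 0 bp in WT and 158, 194 and 173 bp in KO. Of all promoters with a peak, 17.9% were higher in KO without overlap. Phf19 had no H3K4me3 peak in any of the 6 libraries although its printed promoter is rich in CpG, and neither H3K27ac nor H3K4me1 was called in its promoter.

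**Figure D4:**
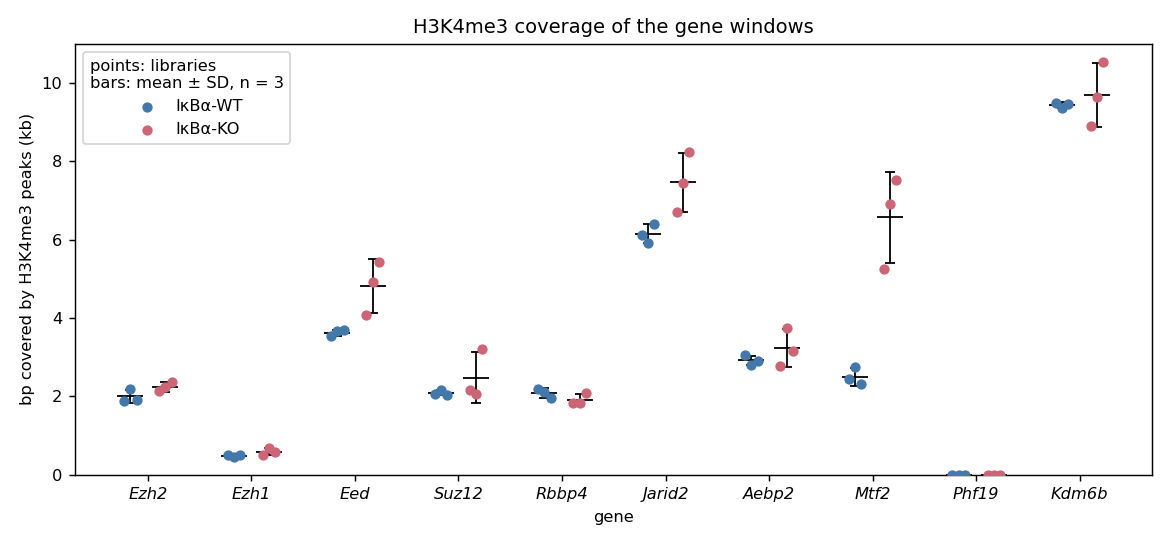
Sequence covered by H3K4me3 peaks in kb (vertical axis from 0) in the window of each gene, with points for the 3 WT (blue) and 3 KO (red) libraries and bars for mean ± SD. At Mtf2 all 3 KO points lie above the WT points, Eed and Jarid2 are also separated, and Phf19 is at 0.

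H3K27ac, found at active promoters and enhancers, was called as changed in 6 of 16 tested regions of these genes, 4 higher and 2 lower in KO, against 12.8% of 24039 regions (edgeR, Benjamini-Hochberg adjusted p under 0.05). With TMM factors from raw counts, which moved the median of all regions to −0.13 on the log2 scale, the calls were 0 higher and 6 lower among the members and 721 higher and 4454 lower over all regions, against 1977 and 1099. Directions of H3K27ac are therefore given relative to the median region. The tested regions of these genes were 8.8 to 141.2 kb long, and the part of region length in the share called was not tested. Log2 fold changes of the 6 called regions lay between −0.23 and 0.29, and the median size over all called regions was 0.28. By the whole window, 1 of 10 genes had covered bp and 2 of 10 had reads per kb without overlap, against 29.8% and 15.3% of all windows. None of 20 merged regions was restricted to a genotype, against 4.12% in all gene windows.

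At Ezh2, H3K27ac calls covered 23203, 21603 and 22203 bp in WT and 40403, 39603 and 50003 bp in KO. The KO calls were 1.94-fold wider on average, without overlap (22336 ± 808 bp against 43336 ± 5787 bp; SD, n = 3; exact permutation p = 0.1). Of all windows with an H3K27ac call, 21.6% covered more in KO without overlap and 8.2% less. All H3K27ac calls together covered 380.4 to 392.5 Mb in WT libraries and 410.6 to 419.2 Mb in KO libraries. A region of 21400 bp inside the gene, starting 29541 bp after the 5′ end, was called in 3 KO libraries and 1 WT library. Across the wider calls the density was lower, at 56.7, 60.4 and 56.3 reads per kb in WT and 53.8, 51.6 and 44.5 in KO. Over the region at the 5′ end, which all libraries shared, it did not differ detectably (log2 fold change 0.00 ± 0.05, SE, edgeR adjusted p = 0.997).

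Rbbp4 fell in H3K27ac too. The region over its 5′ end (chr4:129301801-129341600) had 71.9, 72.3 and 73.2 normalised reads per kb in WT and 64.4, 65.1 and 63.3 in KO, without overlap. The log2 fold change was −0.17 ± 0.03 (SE; edgeR adjusted p = 0.00394). The input behind the H3K27ac calls was also lower in KO there, by −0.27 on the log2 scale relative to the median window, and 2.09% of windows had a lower value. Its part in the result was not tested.

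Jarid2 rose over the 3′ part of the gene. From 142 to 199 kb after the 5′ end it had 64.4, 66.5 and 68.4 normalised reads per kb in WT and 75.8, 76.0 and 73.8 in KO (log2 fold change 0.18 ± 0.03, SE, edgeR adjusted p = 0.00196). With TMM on raw counts this was 0.06 (edgeR adjusted p = 0.184), and with regions of like length 0.08 (edgeR adjusted p = 0.024). From 87.9 to 139 kb it rose by 0.10 ± 0.03 (SE; edgeR adjusted p = 0.0395), which was lost without any 1 of the 6 libraries (edgeR adjusted p from 0.0536 to 0.146). Around its 5′ end the values overlapped (0.05 ± 0.03, SE, edgeR adjusted p = 0.292). Input at Jarid2 was 0.06 above the median on the same scale.

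Mtf2, whose whole window lay in 1 H3K27ac region, rose from 106, 110 and 111 normalised reads per kb to 121, 118 and 117, without overlap (log2 fold change 0.12 ± 0.02, SE, edgeR adjusted p = 0.00724). With TMM on raw counts this was −0.00. Ezh1 rose around its 5′ end, with 51.8, 59.6 and 61.6 normalised reads per kb in WT and 78.9, 66.4 and 66.1 in KO (0.29 ± 0.08, SE, edgeR adjusted p = 0.0421), and lost the call without any of 5 of the 6 libraries, all but WT replicate 3 (edgeR adjusted p from 0.0504 to 0.148). H3K27ac at the 5′ end of Ezh1 was thus higher and its H3K4me3 summit lower in KO. Input behind the H3K27ac calls of the whole Ezh1 window was 0.16 below the median, and 6.48% of windows had a lower value.

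Kdm6b fell in H3K27ac at its 3′ end (chr11:69393801-69402600), a region that also holds Tmem88, Naa38 and Cyb5d1. Normalised densities were 90.3, 96.4 and 96.3 reads per kb in WT and 83.6, 79.5 and 77.7 in KO, without overlap (log2 fold change −0.23 ± 0.06, SE, edgeR adjusted p = 0.0342). The call was lost without WT replicate 2, WT replicate 3, KO replicate 2 or KO replicate 3 (edgeR adjusted p from 0.0972 to 0.108). Over its 5′ end the values overlapped, at 83.6, 77.4 and 83.3 in WT and 92.1, 87.7 and 82.1 in KO (0.10 ± 0.05, SE, edgeR adjusted p = 0.262). Input at Kdm6b was −0.10 relative to the median. Ezh2, Eed, Suz12, Aebp2 and Phf19 had no called H3K27ac region.

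H3K4me1, a mark of enhancers, was called as changed in 6 of 25 tested regions, 3 higher and 3 lower in KO, against 5.64% of 44625 regions (edgeR, Benjamini-Hochberg adjusted p under 0.05). With TMM on raw counts the members' calls were 6 higher and 2 lower, and over all regions 3328 and 344 against 1786 and 732. By the whole window, covered bp did not overlap at 5 of 10 genes (27.1% of all windows) and reads per kb at 5 of 10 (29.4%). None of 29 merged regions was restricted to a genotype, against 3.01%. The tested H3K4me1 regions of these genes were 4.4 to 86.6 kb long, and the part of region length in the share called was not tested. Log2 fold changes of the 6 called regions lay between −0.22 and 0.22, and the median size over all called regions was 0.29.

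Suz12, the scaffold, rose in H3K4me1. Its gene body (chr11:79994201-80033200) had 59.4, 60.5 and 59.1 normalised reads per kb in WT and 71.6, 67.9 and 69.3 in KO, without overlap (log2 fold change 0.22 ± 0.03, SE, edgeR adjusted p = 0.000824). The next region, 40.9 to 87.1 kb after the 5′ end, rose by 0.12 ± 0.03 (SE; edgeR adjusted p = 0.0438) and lost the call without any library but KO replicate 3 (edgeR adjusted p from 0.0778 to 0.177). H3K27ac over Suz12 had a log2 fold change of 0.07 ± 0.03 (SE; edgeR adjusted p = 0.0725). Input at Suz12 was 0.01 below the median, on the log2 scale.

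Rbbp4 fell. Its gene body (chr4:129300601-129334600) had 78.2, 83.4 and 83.4 normalised reads per kb in WT and 69.5, 71.2 and 69.5 in KO, without overlap (log2 fold change −0.22 ± 0.04, SE, edgeR adjusted p = 0.00151). Input was −0.25 relative to the median window, and the median over 45 gene windows within 1 Mb of Rbbp4 was −0.11. The part of the input in this fall was not tested. H3K4me3, H3K27ac and H3K4me1 were all called lower at this gene.

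Jarid2 moved in opposite directions along its length. From 4.53 to 87.1 kb it fell from 135, 137 and 134 normalised reads per kb to 129, 127 and 129 (log2 fold change −0.08 ± 0.02, SE, edgeR adjusted p = 0.00984), and from 141 to 228 kb it rose from 74.1, 76.8 and 72.5 to 85.4, 85.1 and 83.1 (0.18 ± 0.02, SE, edgeR adjusted p = 0.000234). The groups did not overlap in either region. The second lies where H3K27ac also rose, and it extends past the 3′ end of Jarid2 into Dtnbp1. With TMM on raw counts the fall was not called (edgeR adjusted p = 0.603).

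Kdm6b lay in a single H3K4me1 region (chr11:69396201-69439400) with 113, 115 and 111 normalised reads per kb in WT and 98.8, 103 and 102 in KO. The KO values were below all WT values (log2 fold change −0.16 ± 0.03, SE, edgeR adjusted p = 0.0018). Input was −0.12 relative to the median, and its part was not tested. At Ezh2 the region inside the gene from 0.94 to 25.1 kb had 69.4, 68.6 and 71.4 in WT and 77.4, 75.9 and 77.9 in KO, without overlap, and did not pass (0.14 ± 0.04, SE, edgeR adjusted p = 0.0613). Ezh2 calls also covered more sequence, 47803, 43203 and 38803 bp against 54003, 61403 and 55603 bp, and so did those of Phf19. H3K4me1 calls of Eed, Aebp2 and Mtf2 covered less in KO, also without overlap. Of all windows 11.7% were higher and 15.4% lower. When the same number of top-ranked calls was taken from each list, both gains were lost and the falls at Eed, Aebp2 and Mtf2 stayed. Under that setting 11% of all windows were higher and 15.2% lower. With an FDR below 0.01 the gain at Phf19 was lost and that at Ezh2 stayed. In the Mtf2 promoter H3K4me1 calls covered 4727, 5101 and 3600 bp in WT and 2800, 3200 and 3200 bp in KO. Of all promoters with a call, 7.62% were lower without overlap. Ezh1, Eed, Aebp2, Mtf2 and Phf19 had no called H3K4me1 region.

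**Figure D5:**
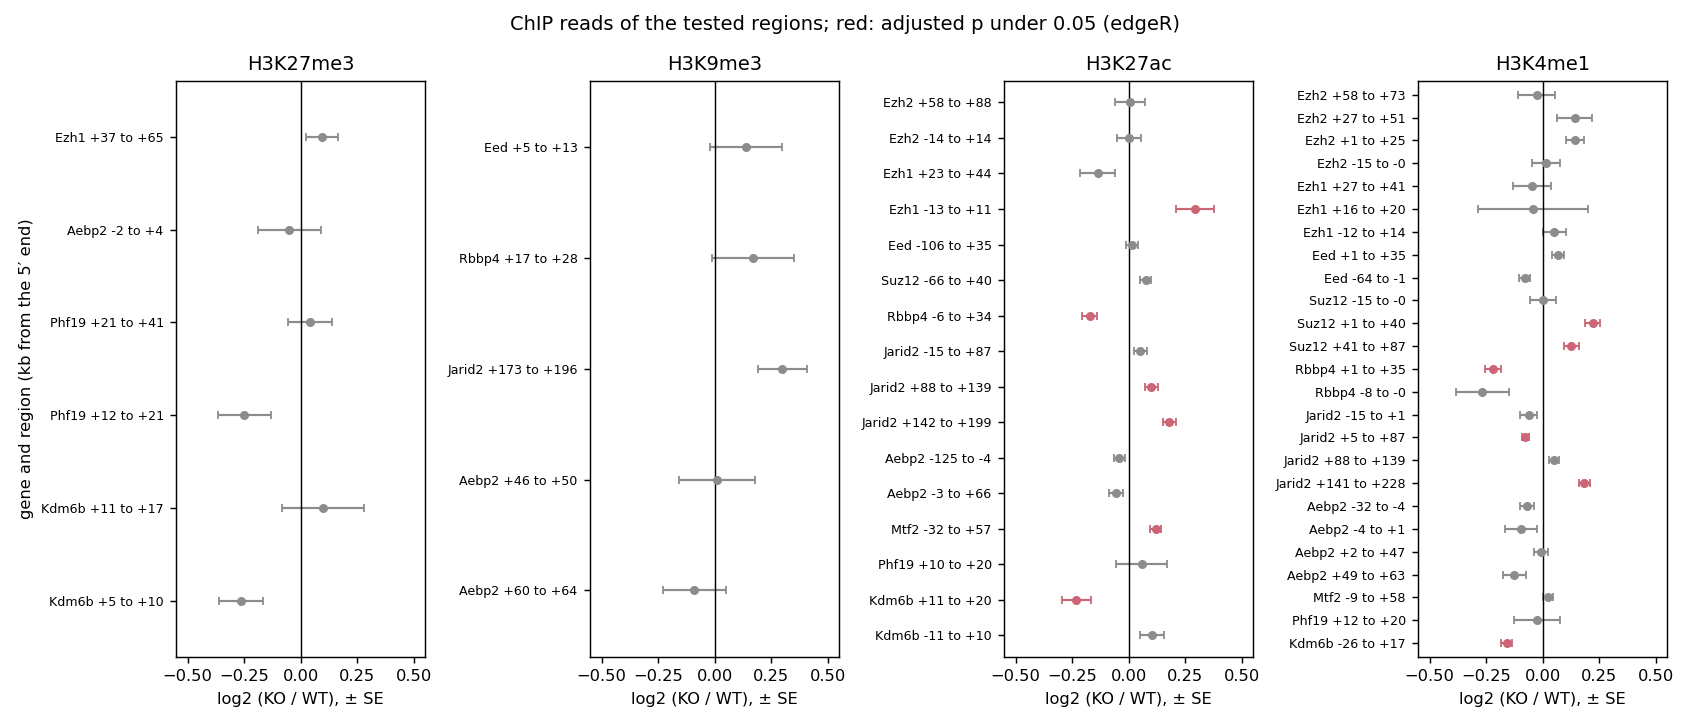
Log2 fold change (KO over WT) of normalised ChIP reads, ± SE, for every region of the 10 genes called in all 6 libraries, labelled by gene and by its extent in kb from the 5′ end; red points have an edgeR adjusted p under 0.05. None of the H3K27me3 or H3K9me3 regions is red, and the Rbbp4 regions lie below 0 for H3K27ac and H3K4me1.

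H3K9me3, the mark of heterochromatin, was called in all 6 libraries at 5 of the 10 genes, against 6130 of all 21938 gene windows. No library had a call in any of the 10 promoters. None of 5 tested regions was called by edgeR, against 0.439% of 27342 regions, and 1 had an unadjusted p under 0.05. Covered bp did not overlap at 2 of 6 genes (16.1% of all windows with a call), and reads per kb at 0 of 5 (7.18%). Both of the 2 genes were higher in KO, and of all windows 4.76% were higher and 11.4% lower. None of 16 merged regions was restricted to a genotype, against 3.46%.

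Suz12 had 4000, 5800 and 0 bp of H3K9me3 calls in WT and 11600, 13400 and 12000 bp in KO. These values did not overlap. No single region was called in all KO libraries, and so in all 6 libraries, and none was tested. Mtf2 had 3400, 8800 and 8200 bp in WT and 11400, 10200 and 9600 bp in KO, also without overlap, and its input density in those calls was −0.44 relative to the median. Both separations were lost when the same number of top-ranked calls was taken from each list. At Jarid2 the region near the 3′ end had 29.2, 27.4 and 25.6 normalised reads per kb in WT and 36.8, 31.3 and 33.2 in KO (log2 fold change 0.30 ± 0.11, SE, edgeR adjusted p = 0.348), which did not pass.

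The 28 other Polycomb genes covered further PRC2 subunits, PRC1 and Kdm6a. H3K27me3 was called in all 6 libraries at 14 of them, against 9733 of all 21938 gene windows, and in none at 8. None of the 31 H3K27me3 regions tested at them was called by edgeR, against 2.73% of all regions. H3K4me3 enrichment rose at 5 of 28 and fell at 0 (limma), and the members had 0 and 2 of 9. Over all 13533 windows 1208 rose and 1356 fell, which made 18.9%. The largest rise was at Cbx2, a PRC1 chromobox gene, from 7.02 ± 0.63 to 20.7 ± 4.72 (SD, n = 3; log2 fold change 1.45, limma adjusted p = 0.000666). H3K27ac was called higher in 5 and lower in 4 of 58 regions, and H3K4me1 higher in 2 and lower in 3 of 70. The shares called over all regions were 12.8% and 5.64%. The largest changes were for H3K27ac a fall at Pcgf5 (−0.70 ± 0.17, SE, edgeR adjusted p = 0.0181) and a rise at Rybp (0.13 ± 0.03, SE, edgeR adjusted p = 0.0165), and for H3K4me1 a rise at Lcor (0.26 ± 0.04, SE, edgeR adjusted p = 0.00113) and a fall at Phc2 (−0.20 ± 0.03, SE, edgeR adjusted p = 0.000334). The Phc2 region (chr4:128704601-128757000) lies within 1 Mb of Rbbp4 (chr4:129307100-129335370), and input at Phc2 was −0.31 relative to the median. The median over 34 gene windows within 1 Mb of Phc2 was −0.13, and this stretch overlaps that of 1 Mb around Rbbp4. Whether the falls at Phc2 and Rbbp4 are separate was not tested. None of the 6 H3K9me3 regions tested at these genes was called, against 0.439% of all regions.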

How the data were processed

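ChIP-seq of 5 histone marks was compared at 10 genes between 3 WT and 3 KO libraries per mark. According to the study's methods and the submitters' processing notes, the authors trimmed reads (Trim Galore 0.6.6), aligned them to GRCm38 (Bowtie2 2.4.4; the aligner for H3K9me3 and H3K27ac is not given in the sources used here), removed multimapped reads (stated with that aligner) and blacklisted sequence, discarded spike-in reads of H3K27me3, and called regions in each library against 1 input per genotype. For H3K4me3 the authors deposited MACS2 2.2.7.1 peaks with a fold enrichment over input (a ratio), a score and −log10 p-values and q-values. For the other marks the authors deposited epic2 regions (SICER 0.0.52 in the processing notes) with counts of ChIP and input reads, a p-value and FDR, a log2 fold change over input and a score. The labels name 1 antibody for H3K27ac and H3K4me1, and the methods another for H3K27ac.

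Calls were assigned to gene windows of GENCODE M21 (minimum overlap 1 bp), and calls of the 6 libraries were merged. ChIP reads of merged regions called in all 6 libraries were fitted with edgeR 4.0.16 in R 4.3.3 (TMM, covered length as offset, quasi-likelihood test). A normalised density is reads per kb of called sequence divided by the library's relative effective size. H3K4me3 was tested with limma 3.58.1 on log2 of the highest fold enrichment in a window, with no pseudocount and each library centred on its median. Single values were compared with a two-sided exact permutation test. The SE of an edgeR value is its absolute log2 fold change divided by the square root of F. Scripts were tested on simulated data and used Python 3.11.15. Same-numbered WT and KO libraries did not deviate together (correlations of −0.018 to 0.026). The members and lists were chosen with earlier results of these data known. All 10 genes are named; other regions and the 28 other Polycomb genes are named where called, by the largest rise and fall. Reads are not independent molecules, and values cover 3 clones per genotype. Alternatives were DESeq2 1.42.0, TMM on raw counts, a replicate block, other thresholds and windows, and leaving out each library.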

Additional observations from a re-analysis of the deposited data

How the results depend on the processing

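Shares in brackets are those of all regions or windows under the same setting. Called H3K27me3 regions of the 10 genes numbered 0, and 1 of 2 with regions of like length (35.1%, against 2.73%). H3K9me3 had 0 throughout, with no member region left at like length. With the replicate block, H3K27ac calls went from 6 to 3 (11.8%), H3K4me1 calls from 6 to 5 (4.76%) and H3K4me3 calls stayed at 2 (19.2%), although the replicate numbers do not pair the samples. H3K4me3 calls went to 1 without centring (16%). Leaving out 1 library gave 0 to 0 calls for H3K27me3 (1.39 to 2.64%) and H3K9me3 (0.139 to 0.395%). It gave 3 to 5 for H3K27ac (9.15 to 10.7%), 5 to 6 for H3K4me1 (3.72 to 4.07%) and 0 to 3 for H3K4me3 (12.4 to 13.1%). Covered bp then did not overlap at 3 to 7 genes for H3K4me3 (39.0 to 46.2%), 0 to 1 for H3K27me3 (25.9 to 28.0%), 2 to 4 for H3K9me3 (23.5 to 26.7%), 1 to 3 for H3K27ac (37.3 to 40.1%) and 5 to 6 for H3K4me1 (35.2 to 36.0%), where the 7 and the 4 came without KO replicate 1. Reads per kb then did not overlap at 0 to 1 gene for H3K27me3 (28.1 to 32.3%) and H3K9me3 (12.4 to 27.8%), 5 to 7 for H3K4me1 (38.5 to 39.8%) and 2 to 5 for H3K27ac (21.2 to 43.9%). When equal numbers of best-ranked calls were taken, covered bp did not overlap at 1 gene for H3K9me3 (14.6%), 2 for H3K27ac (33.1%) and 3 for H3K4me1 (26.2%). An FDR below 0.01 gave 2 for H3K27ac (30.3%), and promoters gave 0 (10.2%), 0 (11.3%) and 1 (10.5%). Scaled to the reads in calls, reads per kb did not overlap at 2 genes for H3K9me3 (30.6%), 6 for H3K27ac, of which 0 were higher and 6 lower (4.59% and 45.8%), and 3 for H3K4me1 (27.4%). Divided by the library median, it was 1 (17.4%), 5, of which 2 were higher and 3 lower (17.4% and 12.6%), and 3 (27.9%), and in promoters 1 for H3K27ac (16.1%) and 3 for H3K4me1 (24.6%). With TMM on raw counts, which moved H3K27ac by a median of −0.121 over the 16 regions of these genes, 8 of the 16 changed sign, among them the ones called under either setting, at Eed (−0.108), Jarid2 (−0.021) and Mtf2 (−0.002). With regions of like length, 2 of 10 did, at Eed (−0.107) and the 5′ region of Jarid2 (−0.061). Over all regions, DESeq2 called 804 of 13339 for H3K27me3 (514 of 18809 with edgeR) and 537 of 26811 for H3K9me3 (120 of 27342), and TMM on raw counts 5175 for H3K27ac (3076). Regions of like length, fitted without the length offset, gave 451 of 3156 for H3K9me3 (14.3%) and 4758 of 10959 for H3K4me1 (43.4%, against 5.64%). Leaving out 1 library gave 1658 to 1816 for H3K4me1 (2518), 1672 to 1769 for H3K4me3 (2564 with limma), 38 to 108 for H3K9me3 and 261 to 497 for H3K27me3. The cause of these differences was not tested. The lack of read counts in the H3K4me3 lists and 1 input per genotype limit these values.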
